A study of Mus musculus with 9 samples.

Results

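The 43 genes described here encode collagens and other extracellular matrix proteins. They were chosen as a list of symbols with earlier results of these data known, and each was looked up by symbol among the 27198 rows of the authors' deposited table. All 43 were found, in 44 rows, since Nid1 has 2. Of these rows 43, from 42 genes, had been tested by Cuffdiff, and Col8a1 had not. They were grouped as 6 fibrillar collagens, 13 basement membrane genes and 24 other matrix genes.

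The tissue was the posterior second heart field (pSHF), mesoderm behind the early heart tube that adds cells to the atria and the atrial septum. It was dissected from mouse embryos of mixed background at embryonic stage E10.5 and measured by polyA RNA-seq. The dissected piece also held transcripts known from other tissues. An example is the liver gene Afp, at 325 FPKM in Shh KO and 95.6 FPKM in Shh WT in the authors' deposited table. There were 5 libraries of Shh KO and 4 of Shh WT, where Shh encodes the secreted ligand Sonic hedgehog. The labels do not state the allele, the part of Shh removed, or whether embryos were pooled or kept apart. A p-value here thus covers variation among the 9 libraries alone, some or all of which could be technical. All values below are 1 pooled value per genotype or 1 comparison in the authors' deposited tables, so no value per library, SD or n can be given. In bulk tissue, fewer cells of a type and less RNA per cell cannot be told apart.

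The Shh row read 5.44 FPKM in Shh KO and 15.7 FPKM in Shh WT in the authors' deposited table, and it is wider than the gene and overlaps others. Of genes known from pSHF mesoderm, Osr1 had 33.5 FPKM in Shh KO and 71.4 FPKM in Shh WT, and Foxf1 had 42.5 FPKM in Shh KO and 83.5 FPKM in Shh WT, in the authors' deposited table. Isl1 (−0.39, Cuffdiff q = 0.821) and Tbx5 (−0.44, Cuffdiff q = 0.562), also known from it, were not called (log2 fold changes in the authors' deposited table).

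Collagens are built from triplets of glycine and other residues, wind into trimers in the endoplasmic reticulum and are secreted. Fibrillar collagens pack into the fibres of connective tissue, while type IV collagen, laminins, nidogens and perlecan form the basement membrane, a sheet under epithelia and around muscle and vessels. In the embryonic heart, mesenchyme of the cushions, the epicardium and their fibroblast descendants are known for fibrillar collagen, periostin and lumican, and versican is a main proteoglycan of cardiac jelly.

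In the Shh KO pSHF, 5 matrix genes were called higher at a Cuffdiff q under 0.05 in the authors' deposited table, namely Postn, Lum, Col6a3, Col1a1 and Col6a1. One gene was called lower, Adamts20. All 6 calls were lost, leaving 0 higher and 0 lower, when the same Cuffdiff p-values were adjusted by the stricter Benjamini-Yekutieli method. That loss was fixed in advance and is not particular to these genes. Even a row at the smallest deposited p (5e-05) cannot pass a threshold of 0.05 by that method. The 6 calls were also lost with p-values taken from the normal tail of the deposited statistic. At an unadjusted Cuffdiff p under 0.05, 16 members had a positive and 4 a negative change. Over all 13048 named tested rows, 1.56% were called higher and 0.383% lower. Because the list was drawn up with this contrast known, the shares are a setting for the 5 and 1 calls among 43 tested rows and not a test of the list. The remaining 37 tested rows were not called. Their q above the threshold does not show that the transcripts were alike in the genotypes.

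The promoter stretches of Postn, the genes of type VI collagen and Adamts20 are shown because Postn and Adamts20 had the largest called rise and the 1 called fall of the list, and the type VI chains had positive fold changes together. Each runs 5′ to 3′ on the gene's strand over the 200 bases before the RefSeq start site (GRCm38.p6), which equals the start of the deposited row. Capitals mark matches on either strand to TATAAA (the TATA box), to CCAAT (the CCAAT box) or to GGGCGG (the GC box).
Postn (chr3:54360907-54361106, + strand): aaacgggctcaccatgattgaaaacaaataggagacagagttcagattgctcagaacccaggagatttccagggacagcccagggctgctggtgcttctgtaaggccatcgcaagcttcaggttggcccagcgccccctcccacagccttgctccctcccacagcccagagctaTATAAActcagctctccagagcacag
Col6a1 (chr10:76726045-76726244, − strand): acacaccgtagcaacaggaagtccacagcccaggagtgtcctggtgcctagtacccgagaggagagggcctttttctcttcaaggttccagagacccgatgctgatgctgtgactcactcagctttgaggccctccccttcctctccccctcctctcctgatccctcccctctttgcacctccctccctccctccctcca
Col6a2 (chr10:76623405-76623604, − strand): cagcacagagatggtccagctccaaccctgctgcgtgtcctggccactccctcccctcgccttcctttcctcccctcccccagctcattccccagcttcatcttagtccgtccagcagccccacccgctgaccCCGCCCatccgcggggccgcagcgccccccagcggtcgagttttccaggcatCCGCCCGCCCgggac
Col6a3 (chr1:90843972-90844171, − strand): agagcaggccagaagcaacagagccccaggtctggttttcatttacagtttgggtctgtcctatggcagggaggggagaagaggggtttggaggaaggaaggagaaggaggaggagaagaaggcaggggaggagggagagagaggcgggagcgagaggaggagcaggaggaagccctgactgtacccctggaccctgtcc
Adamts20 (chr15:94404351-94404550, − strand): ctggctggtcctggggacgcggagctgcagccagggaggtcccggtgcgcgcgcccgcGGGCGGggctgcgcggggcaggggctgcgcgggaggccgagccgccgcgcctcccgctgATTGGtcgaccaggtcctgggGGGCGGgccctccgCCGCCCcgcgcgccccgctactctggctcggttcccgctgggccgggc
The Postn stretch holds a TATAAA match whose first base lies at −26 from the start site. No capital appears in the stretches of Col6a1 and Col6a3, whereas that of Col6a2 holds 3 GGGCGG matches, of which the ones at −15 and −11 overlap. The Adamts20 stretch is the richest in G and C, at 82.0%, and holds a CCAAT match at −83 and 3 GGGCGG matches. It lies inside the longer GENCODE gene, and which start was in use in this tissue was not determined.

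RefSeq windows of 300 bases (250 before the start site and 50 after it) were found for 27 of the 43 members and not for the other 16, which include Col1a1 and Lum. TATAAA was found on either strand in the windows of 4 of the 27 members, Col13a1, Col3a1, Postn and Tnc, or 14.8%, against 13.6% of all 32851 windows. CCAAT occurred in 10 member windows (37.0%, against 37.4% of all windows). GGGCGG occurred in 19 (70.4%, against 35.7%). Col4a1 and Col4a2, whose starts overlap, are counted apart among these. For each member only the window nearest its deposited start was used, whereas all 32851 windows were counted without such a choice. The sets are thus unlike, and no difference in shares was tested. TGTTTAC, a core of forkhead sites, was in 1 member window (3.7%, against 3.65%), that of Col6a1. GACCACCCA, the consensus bound by Gli factors, was in 0 of the 27 and in 0.253% of all windows. No search letters overlapped between different motifs in the stretches printed. A match is a description of the letters in these windows only.

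Postn, which encodes periostin, a secreted protein of cushion mesenchyme and periosteum that binds collagen, had the largest called change of the list. It lies on chromosome 3 (54361107 to 54391041, + strand, mm10). Its pooled level was 14.9 FPKM in Shh KO and 3.88 FPKM in Shh WT in the authors' deposited table. That is 3.84-fold, or 1.94 on the log2 scale, with a standard error of 0.58 (Cuffdiff q = 0.00554, in the authors' deposited table). This error is the deposited log2 fold change divided by the deposited test statistic, and it is the only measure of spread that the tables allow. The deposited p is smaller than the normal tail of that statistic, so the errors given here describe and do not test. Postn ranked 44th by size among the 203 called rises of that table.

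Lum encodes lumican, a small leucine-rich proteoglycan that coats collagen fibrils and sets their spacing. Its row spans 97565501 to 97572703 on chromosome 10 (+ strand). Lum had 16.2 FPKM in Shh KO and 5.28 FPKM in Shh WT in the authors' deposited table, a log2 fold change of 1.62 ± 0.55 (SE, Cuffdiff q = 0.00554). The gene upstream of it on the same strand, Dcn, encodes decorin, a proteoglycan of the same family. Dcn, 47.0 kb away, had a log2 fold change of 0.37 ± 0.52 (SE) and was not called in the authors' deposited table. Lum thus passed the threshold and Dcn did not, and the difference between them was not tested.

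Col1a1 encodes the α1 chain of type I collagen, the main collagen of connective tissue. It was by far the most abundant called member, with 281 FPKM in Shh KO and 163 FPKM in Shh WT in the authors' deposited table. In both genotypes it ranked 6th by level among the 253 genes of the shorter table, which holds called genes only. Levels of uncalled genes are not given, so its rank among all genes is unknown. The log2 fold change was 0.79 ± 0.40 (SE, Cuffdiff q = 0.0176, in the authors' deposited table), near the low end of the called rises, at rank 191 of 203. In FPKM, which is scaled to transcript length, the difference of 118 FPKM exceeded those of the other 4 called rises, which were 1.57 to 11 FPKM. Its row covers 94936270 to 94953037 on chromosome 11 (+ strand).

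Type VI collagen forms beaded filaments that link fibres to cells and basement membranes, and its trimer takes 1 chain each from Col6a1, Col6a2 and Col6a3. Col6a3 (chromosome 1, 90766860 to 90843971, − strand) had 2.87 FPKM in Shh KO and 1.29 FPKM in Shh WT in the authors' deposited table. Its log2 fold change there was 1.15 ± 0.57 (SE, Cuffdiff q = 0.00554, in the authors' deposited table), and 0.75 when 1 FPKM was added to both levels, which are low. Col6a1 (chromosome 10, 76708792 to 76726044, − strand) had 19.9 FPKM in Shh KO and 12.3 FPKM in Shh WT in the authors' deposited table. Col6a1 was called with a log2 fold change of 0.70 ± 0.45 (SE, Cuffdiff q = 0.0454, in the authors' deposited table). Col6a2, which lies 85.2 kb from Col6a1 on the same strand, had a slightly larger log2 fold change of 0.72 ± 0.45 (SE) but a q of 0.0502 in the authors' deposited table, and so was not called. These 2 chains are the members nearest the threshold, Col6a1 inside and Col6a2 outside. Next to them stood Col1a1 inside (q = 0.0176), and Col1a2 and Sparc outside (both q = 0.103) in the authors' deposited table. All 3 chains thus had positive fold changes. The ratio of Col6a1 to Col6a3 in FPKM was 6.95 in Shh KO and 9.50 in Shh WT in the authors' deposited table.

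**Figure D1:**
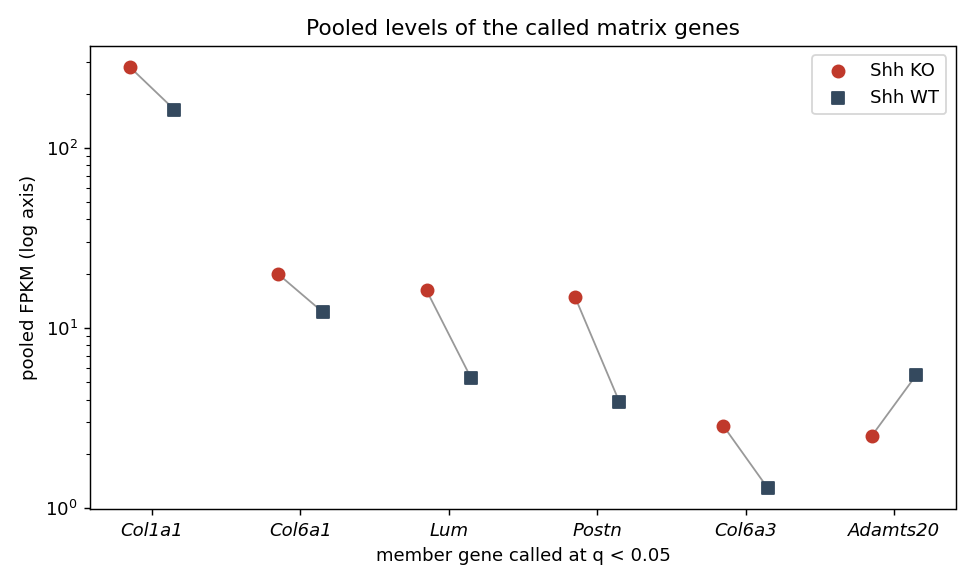
Pooled FPKM (log axis) of the 6 called matrix genes in Shh KO (red circles, left) and Shh WT (dark squares, right), 1 pooled value per genotype with no error available. Col1a1 stood at 281 FPKM in Shh KO and 163 FPKM in Shh WT, far above the other 5, and Adamts20 was the gene with the lower value in Shh KO.

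Adamts20 encodes a secreted metalloprotease that cleaves versican and is needed for pigment cell spread in mouse skin. It was the 1 member called lower, with 2.51 FPKM in Shh KO and 5.47 FPKM in Shh WT in the authors' deposited table. The log2 fold change was −1.12 ± 0.57 (SE, Cuffdiff q = 0.00554, in the authors' deposited table). Its row spans 94270142 to 94404350 on chromosome 15 (− strand), while the GENCODE gene extends to 94465418, its 5′ end on this strand. Vcan, the versican gene, had a log2 fold change of −0.56 ± 0.63 (SE, unadjusted p = 0.0403, Cuffdiff q = 0.674) and was not called in the authors' deposited table.

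The 6 fibrillar collagen genes gave 1 call, Col1a1, and 4 of the 6 had an unadjusted p under 0.05, all 4 positive. Their median log2 fold change was 0.43, beside 0.02 over all named tested rows. Of all those rows, 1.56% were called higher and 5.83% were positive at that p. The list was chosen with this contrast known, so the counts are a description. Col1a2, the partner chain of Col1a1, had a log2 fold change of 0.55 ± 0.39 (SE, unadjusted p = 0.00235) in the authors' deposited table. Col3a1, which forms thin fibrils of vessel and heart mesenchyme, stood at 0.40 ± 0.38 (log2, SE) in the authors' deposited table. Its neighbour Col5a2, 24.6 kb away on chromosome 1, stood at 0.47 ± 0.38 (log2, SE) there in the authors' deposited table. Col5a1, the other chain of type V collagen, which starts fibril assembly, was at 0.07 ± 0.42 (log2, SE) in the authors' deposited table. Col11a1, a fibrillar chain of cartilage and also of embryonic heart, was the 1 negative value, at −0.22 ± 0.43 (log2, SE) in the authors' deposited table. The chains of type I were 0.24 apart on the log2 scale and those of type V 0.40, and neither difference was tested.

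**Figure D2:**
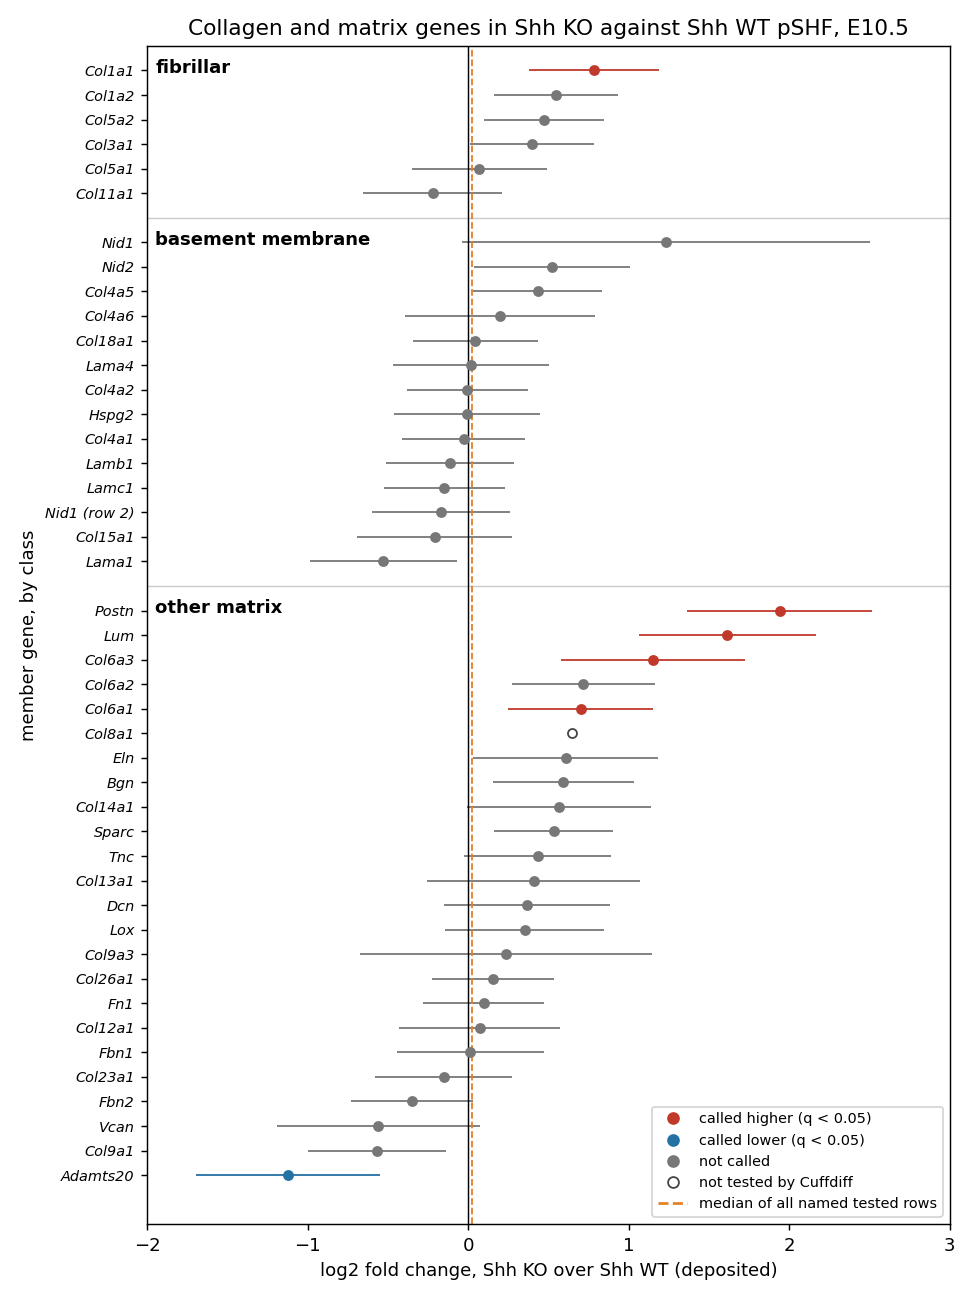
Deposited log2 fold change (Shh KO over Shh WT) of the 44 member rows by class, with bars of 1 standard error implied by the deposited statistic. Red and blue mark calls at a Cuffdiff q under 0.05, the open circle is Col8a1, which was not tested, and the dashed line is the median of all named tested rows (0.02). Col4a1, Col4a2 and Hspg2 lie near the line, Lama1 lies to its left at −0.53, and Postn, Lum and Col6a3 stand to its right.

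None of the 14 basement membrane rows was called by Cuffdiff, and 3 of them had an unadjusted p under 0.05, 2 positive and 1 negative. Their median log2 fold change was −0.0058, with 6 positive and 8 negative values. Over all named tested rows, 5.83% were positive and 1.68% negative at that p. Col4a1 and Col4a2 encode the chains of the type IV collagen found in nearly all basement membranes. They had log2 fold changes of −0.03 ± 0.38 and −0.0057 ± 0.38 (SE) in the authors' deposited table, close to 0 for both. The genes lie head to head on chromosome 8, and the GENCODE genes overlap by 22 bases at their starts. This shared stretch is shown because both genes begin there, in opposite directions (chr8:11312805-11312826, + strand, with its GGGCGG match in capitals).
Col4a1 and Col4a2: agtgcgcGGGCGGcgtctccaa
Col4a5 and Col4a6 form a second head-to-head pair, on the X chromosome with 1.31 kb between them in GENCODE. Col4a5 had a log2 fold change of 0.43 ± 0.40 (SE, unadjusted p = 0.0262) and Col4a6 one of 0.20 ± 0.59 (SE) in the authors' deposited table.

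Laminins are trimers of an α, a β and a γ chain that polymerise on the cell surface. Lama1, the α chain of the earliest embryonic basement membranes, had the most negative value of the class, −0.53 ± 0.46 (log2, SE, unadjusted p = 0.0136, Cuffdiff q = 0.361), in the authors' deposited table. Its common partners Lamb1 and Lamc1 stood at −0.11 ± 0.40 and −0.15 ± 0.38 (log2, SE) in the authors' deposited table. Lama4, an α chain of vessel and muscle basement membranes, was at 0.02 ± 0.48 (log2, SE) in the authors' deposited table, a sign that turns when values are centred on the median of all genes.

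Nidogens bridge laminin and type IV collagen. Nid2 had a log2 fold change of 0.52 ± 0.48 (SE, unadjusted p = 0.0249) in the authors' deposited table, in a row that overlaps 2700060E02Rik. Nid1 appears in 2 rows with the same span on chromosome 13 (13437602 to 13512275) and different values in the authors' deposited table. The log2 fold changes read 1.23 ± 1.27 (SE, unadjusted p = 0.0588) and −0.17 ± 0.43 (SE) in the authors' deposited table, so the direction for Nid1 depends on the row. Hspg2, the gene of perlecan, a heparan sulfate proteoglycan, stood at −0.0058 ± 0.45 (log2, SE) in the authors' deposited table. Col15a1 (−0.21 ± 0.48) and Col18a1 (0.05 ± 0.39), collagens of basement membrane zones that carry glycosaminoglycan chains, had no call either (log2, SE, from the authors' deposited table).

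Other matrix genes held 5 of the 6 calls, 4 higher and 1 lower among 23 tested rows, with a median log2 fold change of 0.37. Shares over all named tested rows were 1.56% called higher and 0.383% lower. Sparc, a collagen-binding glycoprotein that aids deposition of collagen, had 0.53 ± 0.37 (log2, SE, unadjusted p = 0.00235) in the authors' deposited table. Tnc, tenascin-C of remodelling tissue, had 0.43 ± 0.46 (log2, SE, unadjusted p = 0.0457) in the authors' deposited table. Fn1, fibronectin, which integrins assemble into the first fibrils of mesenchyme, was at 0.10 ± 0.37 (log2, SE) in the authors' deposited table. Bgn, biglycan, a proteoglycan of the decorin family, stood at 0.59 ± 0.44 (log2, SE, unadjusted p = 0.00465) in the authors' deposited table. The matrix glycoproteins Postn, Sparc, Tnc and Fn1 all had positive values, whereas among the proteoglycans Lum, Bgn and Dcn were positive and Vcan negative.

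Collagens that sit on fibrils or in membranes gave no call by Cuffdiff, and 2 of their 7 rows had an unadjusted p under 0.05, 1 positive and 1 negative. At that p, 5.83% of all named tested rows were positive and 1.68% negative. Col9a1, a fibril-associated chain of cartilage and notochord, had −0.57 ± 0.43 (log2, SE, unadjusted p = 0.0059, Cuffdiff q = 0.201) in the authors' deposited table. Its partner Col9a3 had 0.24 ± 0.91 (log2, SE) in a row that overlaps Tcfl5 in the authors' deposited table. Col14a1 and Col12a1, fibril-associated collagens of dense connective tissue, were at 0.56 ± 0.57 and 0.07 ± 0.50 (log2, SE) in the authors' deposited table. The membrane collagens Col13a1 and Col23a1 were at 0.41 ± 0.66 and −0.15 ± 0.43, and Col26a1 at 0.15 ± 0.38 (log2, SE), in the authors' deposited table. Col8a1, a short-chain collagen of vessels, was listed at a log2 fold change of 0.64 but not tested in the authors' deposited table.

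The elastic fibre genes gave no call by Cuffdiff, and 1 of 4, Eln, had an unadjusted p under 0.05. Its change was positive, as for 5.83% of all named tested rows at that p. Eln, which encodes elastin of large arteries, had 0.61 ± 0.58 (log2, SE, unadjusted p = 0.0219) in the authors' deposited table. Lox, the enzyme that crosslinks collagen and elastin, stood at 0.35 ± 0.49 (log2, SE) in the authors' deposited table. The fibrillins, which form the microfibril scaffold, stood at 0.01 ± 0.46 for Fbn1 and −0.35 ± 0.38 for Fbn2 (log2, SE) in the authors' deposited table, and the sign of Fbn1 turns with the same centring.

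Over the whole list, 29 of 43 tested rows had a positive fold change (67.4%, against 54.9% of all named tested rows), and the median log2 fold change was 0.20. Over all named tested rows, 5.83% had a positive change with an unadjusted p under 0.05 and 1.68% a negative one, beside the 16 and 4 of the members. These counts follow from a list chosen on this contrast and are given as a description. At a q under 0.01, 3 members were called higher and 1 lower (1.01% and 0.268% of all rows), and at a q under 0.10, 6 higher and 1 lower (2.16% and 0.529%). The normal tail of the deposited statistic gave 3 higher and 1 lower at an unadjusted p under 0.05 (1.09% and 0.383% of all rows). After adjustment it gave 0 of either (0.046% and 0.13% of all rows), against 5 and 1 by the deposited Cuffdiff q. The standard errors of the members ran from 0.37 to 1.27 with a median of 0.45 on the log2 scale, close to the 0.50 of all named tested rows. Col9a3 and the Nid1 row at 1.23 were the 2 with errors above 1.5 times the members' median.

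**Figure D3:**
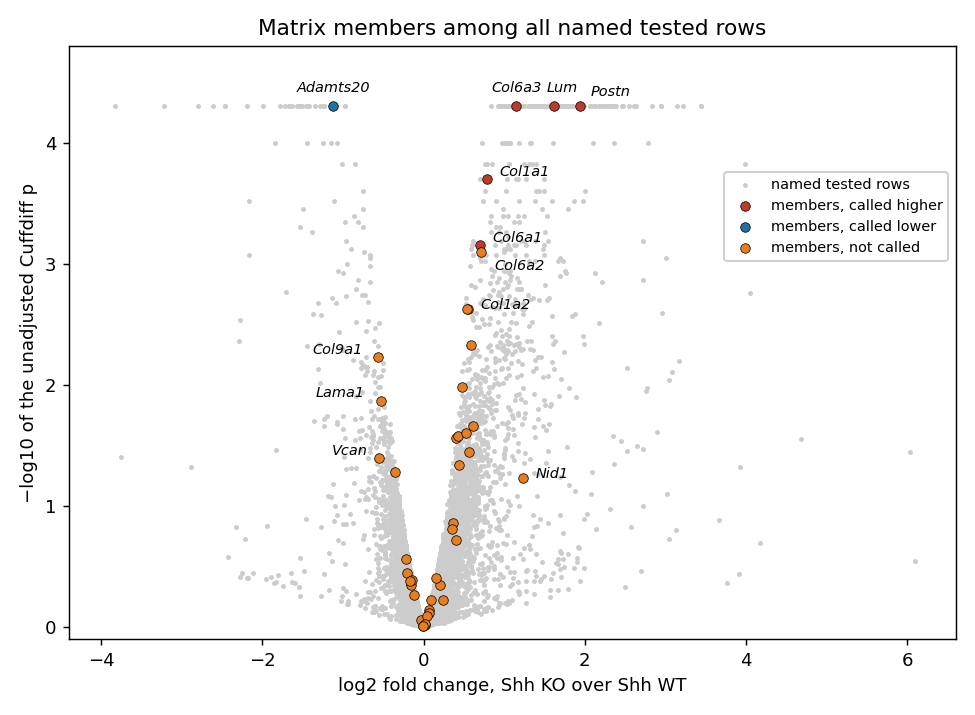
Log2 fold change (Shh KO over Shh WT) against −log10 of the unadjusted Cuffdiff p for all named tested rows (grey) and the 43 tested member rows (coloured, black edge). Postn, Lum, Col6a3 and Adamts20 lie on the upper edge, which is the smallest p of the table (5e-05), and Col6a1 and Col6a2 lie next to each other at the limit of the calls.

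Matrix genes outside the list, in groups written down from textbook knowledge with earlier results known, had 6 of 136 distinct tested rows called higher and 1 lower by Cuffdiff. These are 4.41% and 0.735%, against 1.56% and 0.383% of all named tested rows, and the difference was not tested. For the counts at an unadjusted p under 0.05 given below, the shares over all named tested rows were 5.83% positive and 1.68% negative. Among 10 tested other collagen chains, 1 was called higher, Col8a2, at 10.8 FPKM in Shh KO and 6.08 FPKM in Shh WT in the authors' deposited table. Col8a2 is the partner of the untested Col8a1 (log2 fold change 0.83 ± 0.50, SE, Cuffdiff q = 0.0384, in the authors' deposited table). Col16a1 (0.45) and the cartilage collagen Col2a1 (−0.30) had no call (log2 fold changes in the authors' deposited table).

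The enzymes and chaperones that fold, trim and crosslink collagen had 0 calls by Cuffdiff in 29 tested rows, with 23 positive values, 6 of them at an unadjusted p under 0.05, and a median log2 fold change of 0.20. Nearest to a call was Loxl1, a lysyl oxidase of elastic fibres, at 0.78 ± 0.50 (log2, SE, Cuffdiff q = 0.0513) in the authors' deposited table. P4ha3, a prolyl hydroxylase subunit that stabilises the collagen helix, stood at 0.97 ± 0.72 (log2, SE, Cuffdiff q = 0.153) in the authors' deposited table.

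Other basement membrane genes also had 0 calls by Cuffdiff in 18 tested rows, and their median of −0.15 was negative, with 12 negative values. At an unadjusted Cuffdiff p under 0.05 there were 4 rows, 1 positive and 3 negative. Lamc3, a laminin γ chain, and Frem2, which anchors embryonic epithelia to the matrix, had log2 fold changes of −0.84 ± 0.55 and −0.77 ± 0.49 (SE, Cuffdiff q = 0.0797 and 0.0871) in the authors' deposited table. A second Frem2 row stood at 0.54 ± 1.34 (log2, SE) in the authors' deposited table. Among 13 elastic fibre and microfibril rows, 12 were positive and 1 was called, Fbln2, a fibulin of cushion mesenchyme and basement membranes. Fbln2 had 32.9 FPKM in Shh KO and 15 FPKM in Shh WT in the authors' deposited table (log2 fold change 1.14 ± 0.43, SE, Cuffdiff q = 0.00554). Adamtsl2 (0.99, Cuffdiff q = 0.282) and Efemp1 (0.53, Cuffdiff q = 0.635) had no call (log2 fold changes in the authors' deposited table).

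Small proteoglycans, hyaluronan genes and glycoproteins gave 3 rises and 1 fall in 19 tested rows. Fmod, fibromodulin, a relative of lumican, had 7.71 FPKM in Shh KO and 3.34 FPKM in Shh WT in the authors' deposited table. Vtn, vitronectin, which is also made by liver, had 37.2 FPKM in Shh KO and 18.1 FPKM in Shh WT in the authors' deposited table. Cthrc1, a secreted protein of remodelling mesenchyme, had 14.3 FPKM in Shh KO and 7.36 FPKM in Shh WT in the authors' deposited table. Sparcl1, a relative of Sparc, was called lower, with 10.2 FPKM in Shh KO and 18.5 FPKM in Shh WT in the authors' deposited table. Hapln3 (−1.07, Cuffdiff q = 0.0637) and Has2, the hyaluronan synthase of cardiac jelly (−0.52, Cuffdiff q = 0.444), had no call (log2 fold changes in the authors' deposited table).

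Integrins and other matrix receptors had 0 calls by Cuffdiff in 21 tested rows and a median of 0.07. At an unadjusted Cuffdiff p under 0.05 there were 3 rows, 2 positive and 1 negative. The collagen receptors Ddr1 and Ddr2 had log2 fold changes of 0.54 ± 0.42 and −0.60 ± 0.47 (SE) in the authors' deposited table, in opposite directions and both uncalled. Of 27 proteases and inhibitors, 1 was called higher, Mmp23, a membrane-tethered metalloprotease, with 11 FPKM in Shh KO and 5.40 FPKM in Shh WT in the authors' deposited table. Adamts17 (0.70) and Serpinf1 (0.46) were the uncalled genes with the largest statistics there (log2 fold changes in the authors' deposited table).

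**Figure D4:**
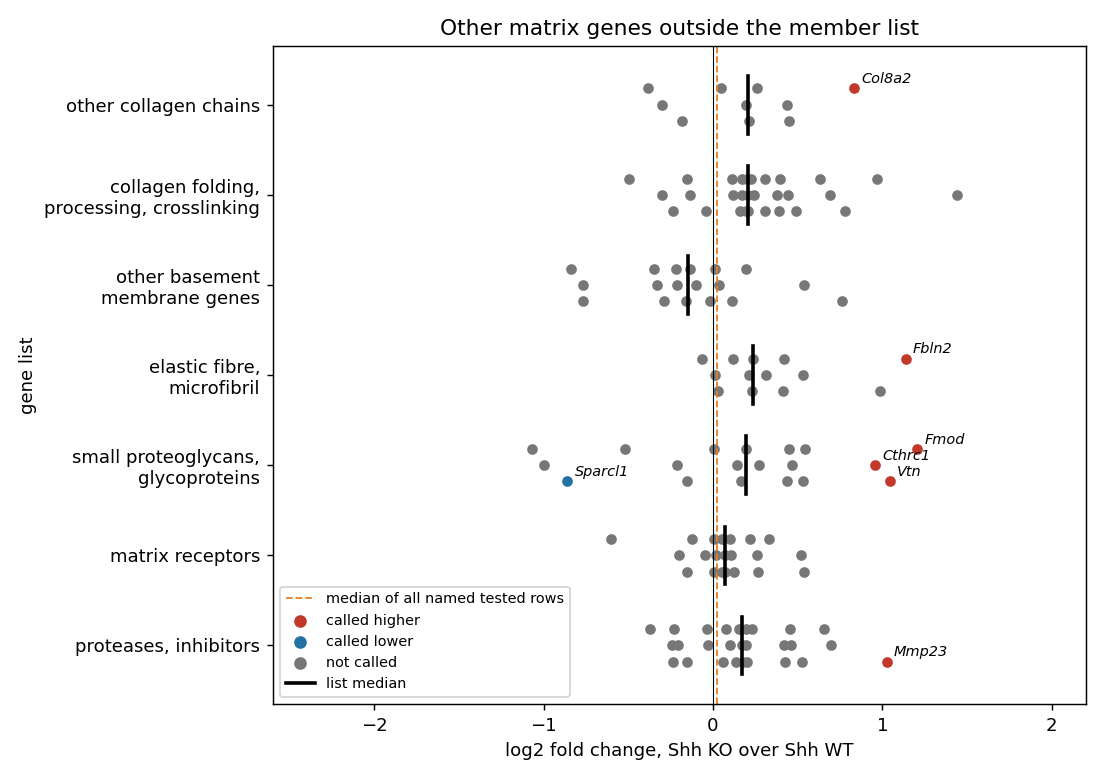
Deposited log2 fold change (Shh KO over Shh WT) of tested matrix genes outside the member list, 1 point per row, in 7 groups, with black bars at each group's median and colours for calls at a Cuffdiff q under 0.05. The median of the other basement membrane genes (−0.15) lies left of the dashed line for all named tested rows, and the elastic fibre median (0.24) right of it.

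Markers of several cell types that also make matrix moved in the same libraries. The marker lists were chosen with earlier results of these data known. Over all named tested rows, 1.56% were called higher and 0.383% lower. Epicardial and mesothelial markers had 3 of 9 called higher, Wt1, Krt19 and Upk3b, with a median log2 fold change of 0.46 and summed levels of these 3 of 123 FPKM in Shh KO and 68.3 FPKM in Shh WT in the authors' deposited table. Upk1b (0.69) and Tbx18 (0.46) of the same list had no call (log2 fold changes in the authors' deposited table). Smooth muscle markers had 1 of 6 rows called higher, Acta2, at 92.0 FPKM in Shh KO and 56.5 FPKM in Shh WT in the authors' deposited table. Myocd (−0.36) and Tagln (0.40) had no call (log2 fold changes in the authors' deposited table).

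Cardiomyocyte markers had 11 of 12 rows called higher, with summed levels of 2877 FPKM in Shh KO and 1249 FPKM in Shh WT over these 11 in the authors' deposited table. The leading log2 fold changes were 2.95 for Nppa, 2.07 for Myl3, 1.96 for Myl2 and 1.5 for Tnni3, and Ryr2 (0.23) had no call, in the authors' deposited table. Hepatoblast markers had 7 of 7 called higher, with summed levels of 472 FPKM in Shh KO and 132 FPKM in Shh WT in the authors' deposited table, led by Apoa1 (2.46), Alb (2.07), Serpina1a (2.0) and Afp (1.77) in log2 fold change. Macrophage markers had 4 of 7 called higher, at 55.1 FPKM in Shh KO and 19.3 FPKM in Shh WT summed over these 4 in the authors' deposited table. These were Tyrobp (2.18), Fcer1g (1.49), C1qc (1.14) and C1qb (1.12), while Csf1r (1.01) and C1qa (1.23) had no call (log2 fold changes in the authors' deposited table). Endothelial markers had 0 of 10 called by Cuffdiff (median 0.16, 1 positive at an unadjusted p under 0.05), with Egfl7 at 0.39 and Tie1 at 0.31 in the authors' deposited table. Sclerotome and cartilage markers had 0 of 7 called by Cuffdiff (median −0.30, 1 negative at an unadjusted p under 0.05). Neural crest and neuron markers had 3 higher and 1 lower of 9 (median −0.37). In these 2 lists, Pax9 (−1.28) and Col2a1 (−0.30) had no call, Elavl3 (1.16), Tubb3 (0.97) and Stmn2 (0.93) were called higher and Ret (−1.25) lower, and Sox10 (−0.37) had no call (log2 fold changes in the authors' deposited table). Pooled FPKM is given for called genes only. A numeric log2 fold change needs a level above 0 in both genotypes, so the uncalled markers named here were not at 0. How low their levels were was not determined. The counts called in these marker lists stand beside 1.56% called higher and 0.383% lower over all named tested rows, and are a description. The part of any of these cell types in the matrix changes was not tested.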

How the data were processed

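PolyA RNA was sequenced from pSHF tissue of 5 Shh KO and 4 Shh WT libraries as single-end reads of 50 bp, per the labels' protocols. TopHat2 2.0.10, Cuffdiff 2.1.1 and build mm9 are named in the submitters' processing notes; mapping options and the strand setting were not given in the sources used here. Per the labels' protocols the reads are stranded, but the TruSeq RNA kit named there is known not to mark strand, so sense and antisense reads may not have been told apart. Deposited by the authors were a full table of log2 fold changes, test statistics (a score), p-values and q-values, and a shorter table of 253 called genes with FPKM pooled per genotype and their ratio, per the file headers. Depth per library is unknown, so counts cannot be tested.

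Rows with a p under 1 were taken as tested (16944), since Benjamini-Hochberg adjustment over them returned every deposited q within 0.0001. Fold changes have Shh KO on top, since they equal the log2 ratio of the pooled FPKM to within 1.07e-05 for the 253 genes, although the deposited statistic has the opposite sign. The standard error given is the size of fold change over statistic. Calls use the deposited q under 0.05. The 3879 unnamed tested rows were left out, and fold changes were unreadable in 1190 rows, which carry spreadsheet errors. Positions overlapped the GRCm38 (mm10) gene for 99.4% of 21633 symbols and for all 43 members, so they are given as mm10, with 1 added to starts. Promoter sequences are from RefSeq (GRCm38.p6). For 26 of the 27 members with a window, bases after the start site were found in a GENCODE M21 transcript of the gene. The members, gene groups and tests were chosen with earlier results of these data known. Every called member, every chain with a partner on the list, and from other groups the called genes (at most 4) and the 2 uncalled genes with the largest statistic were to be named. One gene that this rule picks is not reported here. Adjustment and calls were tested on simulated data whose p-values came from the normal tail. The deposited p-values differ from that tail, so this checks the code and not the calls made here. Python 3.11.15, numpy 2.4.6, pandas 2.3.3 and scipy 1.17.1 were used.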

Additional observations from a re-analysis of the deposited data

How the results depend on the processing

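The 5 calls higher and 1 call lower depended on how p-values were obtained and adjusted. At a Cuffdiff q under 0.01, 3 members were higher (Postn, Lum and Col6a3) and 1 lower (1.01% and 0.268% of all named tested rows). At a q under 0.10, 6 were higher, with Col6a2 added, and 1 lower (2.16% and 0.529%). Adjustment over named rows only gave the same 6 and 1, and the share over all rows was not computed for it. Benjamini-Yekutieli adjustment of the Cuffdiff p-values left 0 higher and 0 lower. This outcome was fixed in advance, since no row of the series can pass it at the smallest deposited p of 5e-05. At an unadjusted Cuffdiff p under 0.05, 16 members were higher and 4 lower (5.83% and 1.68% of all named tested rows). The normal tail of the deposited Cuffdiff statistic, an alternative chosen after seeing the data, also left 0 higher and 0 lower after adjustment. The shares of all named tested rows were 0.046% and 0.13%. At an unadjusted p under 0.05 that tail gave 3 higher and 1 lower (1.09% and 0.383%). Leaving out rows that overlap others, or (for the higher calls) rows under 1 FPKM, could not change the number of calls. The 2 member rows that overlap others, Col9a3 and Nid2, were uncalled. Pooled levels are given for called members only, and all of these were above 1 FPKM in both genotypes. The members' median log2 fold change of 0.20 ranged from 0.15 to 0.22 over the alternatives run. Centring on the median of all named tested rows (0.02) turned the sign of Fbn1 (to −0.013) and Lama4 (to −0.0097), both near 0. After adding a pseudocount of 1 FPKM, log2 ratios of pooled levels came to 1.70 for Postn, 1.45 for Lum, 0.75 for Col6a3, 0.78 for Col1a1, 0.66 for Col6a1 and −0.88 for Adamts20. Leaving out each replicate was not run, since the tables hold no value per library. No paired analysis was possible either, because every value is pooled per genotype or is a comparison, and the sample titles state no pairing.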

Other observations

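The deposited p-values of the members are smaller than the normal tail of the statistics beside them in the authors' deposited table. For Postn the deposited p is 5e-05 and the two-sided normal tail 0.000778. The pairs are 5e-05 and 0.00356 for Lum, 5e-05 and 0.0445 for Col6a3, and 5e-05 and 0.0494 for Adamts20 in the authors' deposited table. For Col1a1 they are 0.0002 and 0.0522, and for Col6a1 0.0007 and 0.122, in the authors' deposited table. Over all named tested rows, the adjusted normal tail called 6 rows higher and 17 lower, against 203 and 50 by the deposited Cuffdiff q. This comparison was chosen after the values were seen, and its cause was not tested.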
